A study of Homo sapiens with 16 samples.

Results

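Integrins are the receptors by which cells hold on to the matrix around them, and laminins are the trimeric proteins that carry epithelial cells on their basement membrane. The 38 protein-coding genes described here are the 26 integrin subunit genes (18 α and 8 β) and the 12 laminin chain genes, out of 20033 protein-coding genes of the annotation. Membership went by gene symbol. For each gene the bin of 200 bp with the highest mean p65 signal over 12 ChIP libraries was taken, from 50 kb upstream to 2 kb downstream of its transcription start site (TSS). All 38 genes had signal in this range, as did 19440 of the 20033 genes, and these 19440 are the background used throughout.

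The signal came from p65 ChIP-Seq in HT29 and SW480, established human colorectal adenocarcinoma lines. Each line had been stably transfected with ERβ (estrogen receptor beta) or with an empty vector, called mock, which gave the 4 groups HT29 mock, HT29 ERβ, SW480 mock and SW480 ERβ, with 3 ChIP libraries and 1 input library in each. All cells, mock cells included, had received TNFα at 30 ng/ml for 30 min and were cross-linked with DSG and then formaldehyde. No estrogen was added, no library of cells without TNFα was analysed here, and the ERβ came from a construct, so the groups compare transfected populations. Signal is tag density per base scaled to 10 M tags, so the depth of a library cannot be read from its track.

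p65, encoded by RELA, is the subunit of NFκB that binds κB motifs in DNA and activates transcription after TNFα. An integrin is a pair of 1 α and 1 β subunit, and the α subunit largely sets the ligand: laminin, collagen, proteins with an RGD motif such as fibronectin, or counter-receptors on other cells. A laminin is made of an α, a β and a γ chain. Laminin-332, which holds the chains of LAMA3 and LAMB3, anchors epithelia through the integrin α6β4 of hemidesmosomes.

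The libraries stood apart in ways that touch several results. The 95th percentile of all genes' bins was 7.09 and 5.99 in the HT29 mock and HT29 ERβ libraries of replicate 1, against 2.85 to 3.68 in the other HT29 libraries. It was 4.25 in SW480 ERβ replicate 1 against 7.87 and 7.02 in replicates 2 and 3, and 2.89 to 3.54 in the SW480 mock libraries. Labels were checked by the signal in coding exons of ESR2 over that in its introns, which was 1.08 to 1.56 in mock and 2.33 to 6.43 in ERβ ChIP libraries. The broad profile of each ChIP library over bins of 1 Mb followed the input of its own line, with a Pearson r of at least 0.976, more closely than that of the other line, with at most 0.560.

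The highest bin was mostly not at the promoter, whether or not it was bound. It lay within 1 kb of the TSS for 8 of the 38 genes, or 21.1%, against 35.5% of all genes, more than 1 kb upstream for 27, and 1 to 2 kb downstream for 3. The mean over the 12 ChIP libraries had its lowest value, 0.451, at ITGAX and, among the genes reported here, reached 8.26 at LAMA5. The median of the 38 genes was 1.13 against 0.934 over all genes. Above the 90th percentile of all genes, a signal of 2.89, were 7 genes, among them LAMA5, ITGAV, ITGB8, ITGB7, ITGA7 and ITGB6. At the other end 16 genes had a mean under 1. A bin within 50 kb need not act on the gene it is assigned to: 13 bins were also the bin of another protein-coding gene, and 10 were closer to the TSS of another gene.

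The 8 sequences printed here are from bins with a κB match of genes that were higher in SW480 ERβ than in SW480 mock cells, with or without the replicate block described further on. That of ITGA1, which was higher with the block and holds the match GGGGGATTCC, is not printed. LAMB3, LAMC3, ITGB1, ITGB2 and ITGB3 were also called higher, and their bins hold no κB match. The printed set was thus picked for its matches and gives no share. The printed sequences are the plus strand of GRCh38, 5′ to 3′, with matches to the κB consensus in capitals. Matches were sought on both strands. In LAMA3, ITGB8 and ITGA3 the capitals hold 2 overlapping κB matches. The ITGB7 bin lies in an intron of RARG, the LAMA3 bin in an intron of ANKRD29 and the ITGB5 bin in an intron of ITGB5 itself, 1.1 kb past the TSS. The bins of LAMA5, ITGAV, ITGB8, ITGB6 and ITGA3 lie in no protein-coding gene.
LAMA5, chr20:62376601-62376800: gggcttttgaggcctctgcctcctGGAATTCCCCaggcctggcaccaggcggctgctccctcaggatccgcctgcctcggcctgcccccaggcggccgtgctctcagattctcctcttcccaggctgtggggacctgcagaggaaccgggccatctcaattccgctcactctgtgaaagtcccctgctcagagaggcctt
ITGAV, chr2:186544401-186544600: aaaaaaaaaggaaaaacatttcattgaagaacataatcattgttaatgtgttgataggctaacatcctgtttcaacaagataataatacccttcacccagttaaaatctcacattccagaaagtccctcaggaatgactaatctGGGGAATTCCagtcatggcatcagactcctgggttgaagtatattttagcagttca
ITGB8, chr7:20329601-20329800: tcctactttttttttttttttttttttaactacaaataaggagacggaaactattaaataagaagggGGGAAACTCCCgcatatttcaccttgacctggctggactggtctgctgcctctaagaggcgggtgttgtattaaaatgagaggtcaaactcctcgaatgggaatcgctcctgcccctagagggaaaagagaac
ITGB7, chr12:53221001-53221200: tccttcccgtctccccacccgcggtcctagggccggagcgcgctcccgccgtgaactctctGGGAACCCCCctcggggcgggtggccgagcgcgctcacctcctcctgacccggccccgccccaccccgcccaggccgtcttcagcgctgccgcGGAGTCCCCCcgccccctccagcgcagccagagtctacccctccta
ITGB6, chr2:160209601-160209800: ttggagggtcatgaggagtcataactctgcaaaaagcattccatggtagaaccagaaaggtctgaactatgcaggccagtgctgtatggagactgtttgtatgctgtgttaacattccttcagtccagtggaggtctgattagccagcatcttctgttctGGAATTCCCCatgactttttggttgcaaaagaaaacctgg
ITGB5, chr3:124886201-124886400: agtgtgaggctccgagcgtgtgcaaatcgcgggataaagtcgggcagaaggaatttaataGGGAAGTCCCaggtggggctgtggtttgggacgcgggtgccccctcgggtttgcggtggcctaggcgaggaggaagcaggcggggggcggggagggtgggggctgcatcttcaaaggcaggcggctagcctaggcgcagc
LAMA3, chr18:23640201-23640400: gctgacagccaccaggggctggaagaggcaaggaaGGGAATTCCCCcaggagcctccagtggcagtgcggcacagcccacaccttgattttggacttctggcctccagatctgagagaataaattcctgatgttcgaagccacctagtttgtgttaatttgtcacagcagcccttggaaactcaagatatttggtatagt
ITGA3, chr17:50051201-50051400: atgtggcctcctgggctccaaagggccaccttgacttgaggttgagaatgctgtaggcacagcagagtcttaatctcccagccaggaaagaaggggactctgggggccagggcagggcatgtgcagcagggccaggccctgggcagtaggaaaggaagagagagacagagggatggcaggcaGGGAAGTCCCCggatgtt

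A κB match stood in 19 of the 38 bins, or 50%, against 28.5% of the bins of all genes. Among bins with a mean signal of at least 2 it stood in 8 of 11, or 72.7%, against 62.6% of all such bins. The 3 strong bins with no κB match were those of ITGA7, LAMB3 and ITGB4. The AP-1 word, TGACTCA or TGAGTCA, stood in 2 of 38 bins, or 5.26%, against 5.44% of all, and the RUNX word, TGTGGTC or TGTGGTT, in 3, or 7.89%, against 6.34%. No bin held a full estrogen response element, GGTCANNNTGACC, which stood in 0.0617% of all bins. ITGA5 held both a κB and an AP-1 match.

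**Figure D1:**
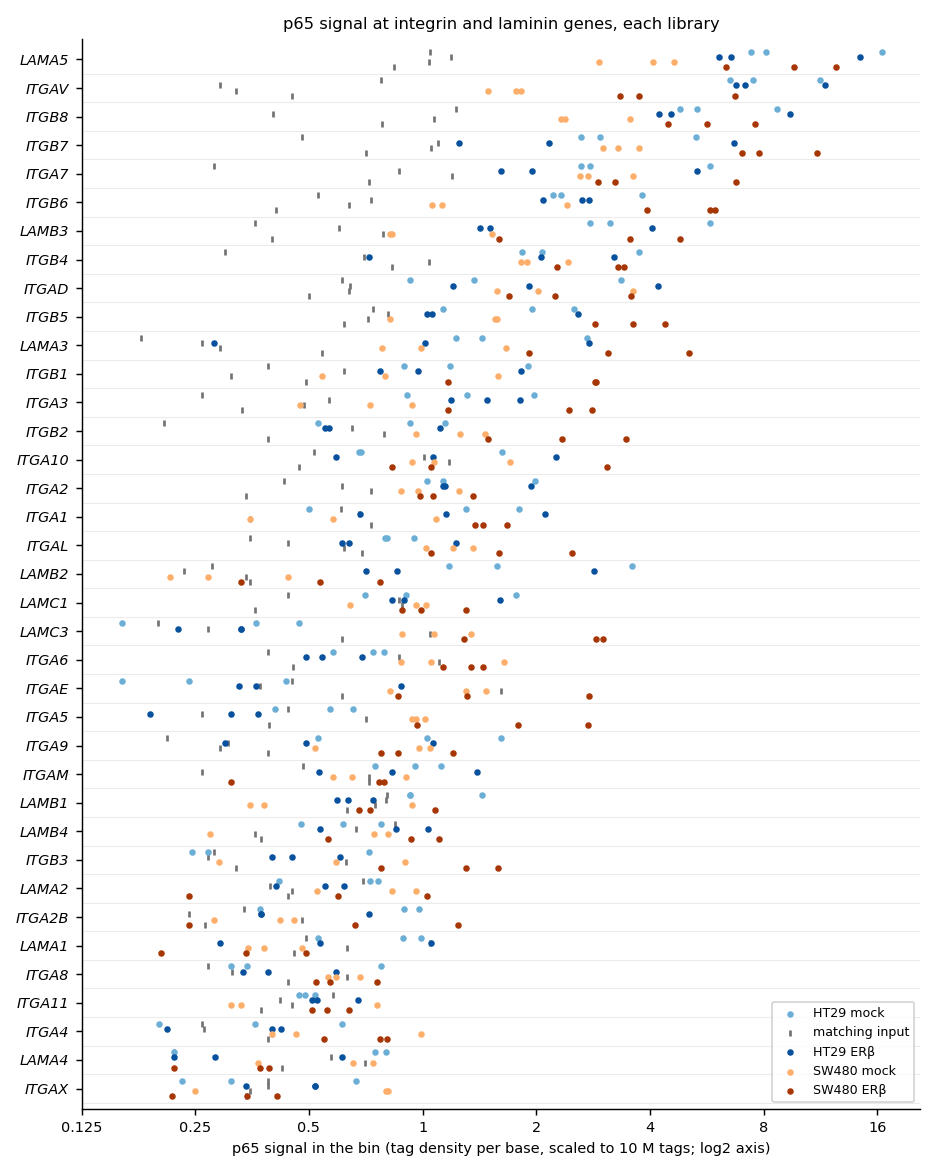
p65 signal in the bin of 37 genes, one point per ChIP library (3 per group) and one grey tick per input, on a log2 axis, with genes in order of their mean over 12 libraries. The top 3 genes drawn stand clear of their inputs in every ChIP library. From about the middle of the plot downward many ChIP points lie among the input ticks. Some stand above them, such as those of LAMB2 in HT29 mock and of LAMC3 and ITGA5 in SW480 ERβ.

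A bin was called bound in a group where, in at least 2 of 3 libraries, its signal was at least 2, at least 4 times the input and at least 4 times the library's own mean over the surrounding 10 kb. Since each bin was picked for a high ChIP signal, this is a description with no test. In HT29 mock cells 8 of 38 genes were bound, 21.1% against 11.7% of all genes, and in HT29 ERβ cells 4, 10.5% against 8.02%. In SW480 mock cells 1 was bound, 2.63% against 4.65%, and none of the genes named below, and in SW480 ERβ cells 13, 34.2% against 21.2%. The input at the 38 bins was not the same in all groups, with a median of 0.638 in SW480 mock against 0.410, 0.588 and 0.445 in HT29 mock, HT29 ERβ and SW480 ERβ, and its part in these counts was not tested.

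At these limits ITGAV, ITGB8 and LAMA5 were bound in all but SW480 mock. ITGA7, ITGB6, ITGB7 and LAMB3 were bound in HT29 mock and SW480 ERβ. ITGAD, ITGB1, ITGB2, ITGB5 and LAMA3 were bound in SW480 ERβ. The bins of the other 25 genes were bound in no group, among them all 4 collagen-binding α subunits and both ITGA4 and ITGA9. Other limits gave other sets: at 6-fold ITGB8 was bound in HT29 ERβ but not in HT29 mock, and ITGA7 in HT29 mock but not in SW480 ERβ. At a signal minimum of 1 ITGA9, LAMA3 and LAMB2 were bound in HT29 mock too. There 11 of 38 genes were bound, 28.9% against 14.1% of all genes. ITGAV was then bound in SW480 mock as well, where 2 of 38 genes were bound, 5.26% against 5.06%. At ITGA10, a collagen-binding α subunit, the bin beside the chosen one was bound in SW480 ERβ, with a signal of 2.07 ± 1.01 (SD, n = 3). The bin beside that of LAMB3 was bound in both HT29 groups, with 2.81 ± 1.1 in HT29 mock and 2.53 ± 1.1 in HT29 ERβ. A bin 33 kb upstream of ITGB6 was bound in HT29 ERβ alone, with 2.12 ± 0.65 there and 2.57 ± 2.0 in HT29 mock. With windows moved in steps of 50 bp ITGA10 was bound in SW480 ERβ, LAMA5 and ITGAD in SW480 mock and LAMB3 in HT29 ERβ.

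**Figure D2:**
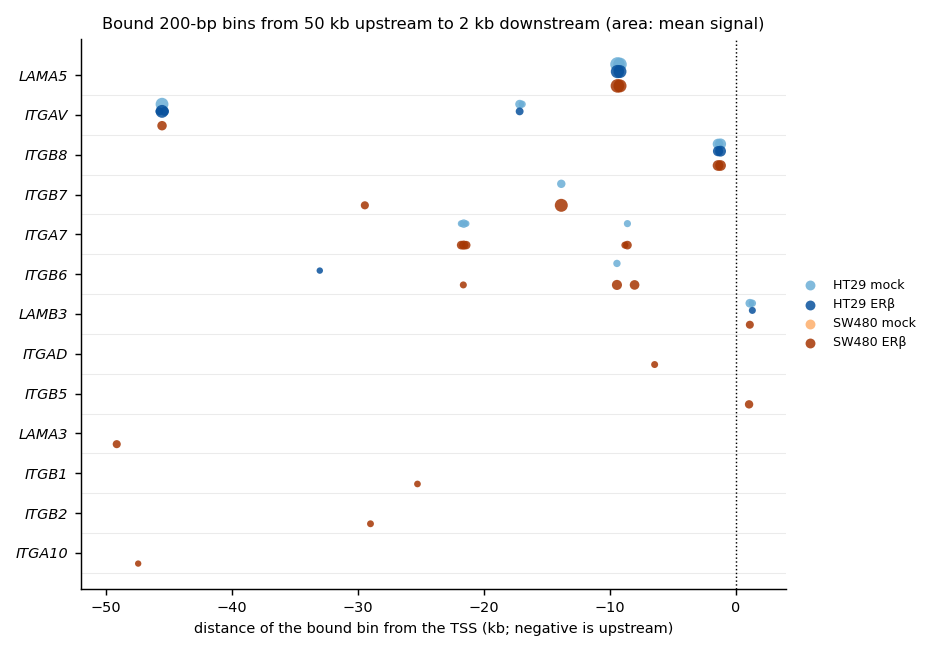
The 200-bp bins called bound within the range of each gene drawn, by distance from the TSS in kb, with a colour per group and an area that follows the mean signal of the group. Most bound bins lie upstream of the TSS, but so does most of the range searched, and neighbouring bins of one peak are each drawn. ITGAV shows 2 bound places, 45.6 and 17.2 kb upstream.

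LAMB3, the β3 chain of laminin-332, had its bin 1.1 kb downstream of its TSS, over an untranslated exon, and G0S2, a neighbouring gene, shares that bin. It read 5.75, 2.77 and 3.14 in HT29 mock libraries and, in HT29 ERβ libraries, 4.06, 1.504 and 1.42. SW480 mock libraries read 0.821, 1.53 and 0.829 and SW480 ERβ libraries 1.59, 3.53 and 4.80. HT29 and SW480 mock libraries did not overlap, and neither did SW480 mock and ERβ libraries.

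LAMA3, the α3 chain of laminin-332, had its bin 49.2 kb upstream, at the far end of the range. Signal there was 2.72, 1.23 and 1.44 in HT29 mock and, in HT29 ERβ, 2.76, 1.01 and 0.280. SW480 mock libraries read 0.779, 0.988 and 1.66 and SW480 ERβ libraries 1.91, 5.06 and 3.10. Here too every SW480 ERβ library was above every SW480 mock library, the nearest being 1.91 and 1.66.

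Among the other laminin chains LAMA5 was the only one whose bin was bound in any group at the main limits. At a signal minimum of 1 LAMB2 was bound in HT29 mock. Over the starts of all transcripts LAMA1 and LAMC3 were bound in SW480 ERβ too, with signals of 3.14 ± 1.5 and 2.57 ± 0.96 (SD, n = 3). The LAMA1 place read 3.26 ± 1.3 in HT29 mock, 2.61 ± 2.0 in HT29 ERβ and 1.89 ± 0.91 in SW480 mock, and the bin beside it was bound in HT29 mock. LAMC3 read 1.45 ± 0.30, 0.827 ± 0.16 and 0.419 ± 0.15 in the same order. LAMA5 encodes α5, the main laminin α chain of adult epithelial basement membranes, and its bin, shared with RPS21, lay 9.4 kb upstream. Values were 16.5, 7.39 and 8.10 in HT29 mock and, in HT29 ERβ, 14.4, 6.08 and 6.56. SW480 mock libraries read 2.93, 4.08 and 4.63 and SW480 ERβ libraries 6.35, 12.4 and 9.61. SW480 mock was the low group, below every library of the other 3 groups.

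LAMB2 (β2) and LAMC3 (γ3) differed between the lines in opposite ways, at low signal. LAMB2 read 3.58, 1.58 and 1.18 in HT29 mock, 2.83, 0.854 and 0.707 in HT29 ERβ, 0.27, 0.215 and 0.44 in SW480 mock, and 0.773, 0.535 and 0.330 in SW480 ERβ. LAMC3 read 0.160, 0.470 and 0.362 in HT29 mock, 0.225, 0.330 and 0.330 in HT29 ERβ, 1.07, 1.34 and 0.882 in SW480 mock, and 1.29, 2.87 and 3.01 in SW480 ERβ. The LAMC3 mean was 1.05 times its input in SW480 mock and 3.92 times in SW480 ERβ. The LAMB2 bin is shared by 5 other genes, and the mean over 12 libraries of the remaining 6 chains ran from 0.469 at LAMA4 to 1.04 at LAMC1.

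Of the laminin-binding α subunits, ITGA7 had the highest signal, but at a place that names another gene. Its bin, 21.6 kb upstream, overlaps untranslated exon sequence of CD63, with its centre 491 bp upstream of the main CD63 TSS. The same bin is also that of CD63 and GDF11. Values were 5.75, 2.63 and 2.78 in HT29 mock, 5.34, 1.61 and 1.95 in HT29 ERβ, 2.62, 2.73 and 3.62 in SW480 mock, and 2.91, 6.77 and 3.23 in SW480 ERβ, with all groups overlapping. Another place, 8.6 kb upstream of ITGA7, was bound in HT29 mock and SW480 ERβ. It read 2.63 ± 0.90 (SD, n = 3) in HT29 mock, 2.08 ± 0.54 in HT29 ERβ, 1.44 ± 0.55 in SW480 mock and 3.89 ± 0.66 in SW480 ERβ. ITGA3, which with β1 forms another laminin-332 receptor, had a bin 4.8 kb upstream that read 1.97, 0.908 and 1.31 in HT29 mock, 1.48, 1.81 and 1.19 in HT29 ERβ, 0.724, 0.474 and 0.935 in SW480 mock, and 1.17, 2.81 and 2.45 in SW480 ERβ. Every ITGA3 library of SW480 ERβ was above every one of SW480 mock. ITGA6, which pairs with β4 in hemidesmosomes, was low at its own promoter, with 0.790, 0.740 and 0.580 in HT29 mock, 0.540, 0.693 and 0.490 in HT29 ERβ, 0.877, 1.64 and 1.05 in SW480 mock, and 1.44, 1.34 and 1.13 in SW480 ERβ. ITGA6 was not bound in any group and read 0.661 to 2.88 times its input.

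ITGAV, the αv subunit of several RGD receptors, had the lowest SW480 mock minus HT29 mock difference of the 38 genes in log2(signal + 1). Its bin lay 45.6 kb upstream, outside any protein-coding gene. HT29 mock libraries read 11.3, 7.50 and 6.49 and HT29 ERβ libraries 11.6, 6.75 and 7.12. SW480 mock libraries read 1.77, 1.49 and 1.82 and SW480 ERβ libraries 3.34, 6.71 and 3.74. The SW480 mock values lay under all others. A second bound place, 17.2 kb upstream, read 3.99 ± 1.5 (SD, n = 3) in HT29 mock and 3.18 ± 0.73 in HT29 ERβ, but 0.414 ± 0.22 in SW480 mock and 0.741 ± 0.18 in SW480 ERβ, and was bound in neither SW480 group.

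ITGA5, the fibronectin receptor subunit, was low in HT29 and higher in SW480. Its bin lay on its own TSS and read 0.406, 0.570 and 0.653 in HT29 mock, 0.190, 0.310 and 0.367 in HT29 ERβ, 0.959, 0.940 and 1.01 in SW480 mock, and 0.967, 2.73 and 1.79 in SW480 ERβ. Both SW480 groups lay above both HT29 groups. No group passed the limits for binding.

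Of the leukocyte α subunits, ITGAD had the highest mean, and ITGAL, ITGAE, ITGAM and ITGAX were bound in no group. ITGAD, 6.4 kb upstream, read 3.35, 0.923 and 1.37 in HT29 mock, 4.20, 1.21 and 1.92 in HT29 ERβ, 1.57, 3.62 and 2.02 in SW480 mock, and 1.69, 3.56 and 2.24 in SW480 ERβ, with full overlap. ITGAE, the αE chain that holds intraepithelial lymphocytes, had a bin 45.1 kb upstream on the promoter of NCBP3. It read 0.240, 0.160 and 0.435 in HT29 mock, 0.326, 0.363 and 0.877 in HT29 ERβ, 1.30, 1.47 and 0.819 in SW480 mock, and 1.31, 2.75 and 0.861 in SW480 ERβ. The SW480 mock input read 1.61 there, above the SW480 mock ChIP mean of 1.198.

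ITGAM, which encodes the αM chain of a complement receptor, was bound or not depending on the range searched. Its bin by the rule had a mean of 0.798 and was bound nowhere. Over the starts of all its transcripts, a place 5.5 kb inside the gene came in, with 2 κB matches and 1 AP-1 match, bound in all 4 groups. Signal there was 6.31 ± 1.6 (SD, n = 3) in HT29 mock, 4.44 ± 1.1 in HT29 ERβ, 10.1 ± 0.94 in SW480 mock and 15.6 ± 5.9 in SW480 ERβ. With the starts of all transcripts 13 of the 38 genes took another bin, and ITGB8 gained a place 22.2 kb inside the gene that was bound in all 4 groups, with 4.57 ± 1.3, 3.51 ± 2.2, 5.04 ± 0.82 and 9.20 ± 4.0 in the same order. With these starts LAMA3 was also bound in HT29 mock and ITGB6 in HT29 ERβ. The ITGB8 place and those 17.2 kb upstream of ITGAV and 8.0 kb upstream of ITGB6 each held 1 AP-1 match and no κB match. These places were picked after their values were seen. Motifs at the other further bound places are not given, so no share can be drawn from them. Among the bins of all genes with a mean of at least 2, 8.20% held an AP-1 match.

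The β subunits included most of the bound integrin genes. ITGB8, which pairs with αv to activate TGFβ, had its bin 1.2 kb upstream. HT29 mock libraries read 8.67, 4.81 and 5.33, HT29 ERβ libraries 9.42, 4.53 and 4.22, SW480 mock libraries 2.38, 2.32 and 3.55, and SW480 ERβ libraries 4.47, 7.57 and 5.65. SW480 mock was again the low group, below all other libraries.

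ITGB6, the epithelial partner of αv that is also known to activate TGFβ, had its bin 9.4 kb upstream. HT29 mock libraries read 3.82, 2.33 and 2.21, HT29 ERβ libraries 2.76, 2.65 and 2.08, SW480 mock libraries 1.12, 1.06 and 2.41, and SW480 ERβ libraries 3.92, 5.76 and 5.96. SW480 ERβ libraries were above those of every other group. A neighbouring place, 8.0 kb upstream, read 4.77 ± 0.35 (SD, n = 3) in SW480 ERβ against 1.39 ± 0.048 in SW480 mock, 1.21 ± 0.14 in HT29 mock and 0.981 ± 0.30 in HT29 ERβ.

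ITGB7 encodes the gut-homing chain β7 of lymphocytes. Its bin, 13.8 kb upstream, is shared with CSAD, ESPL1 and MFSD5, and no value here ties it to ITGB7. It read 5.30, 2.96 and 2.63 in HT29 mock, 6.66, 1.24 and 2.16 in HT29 ERβ, 3.74, 3.30 and 3.01 in SW480 mock, and 7.005, 11.1 and 7.78 in SW480 ERβ. The SW480 ERβ libraries stood above all others.

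ITGB5, another partner of αv, read 2.51, 1.13 and 1.94 in HT29 mock, 2.57, 1.03 and 1.06 in HT29 ERβ, 0.819, 1.55 and 1.57 in SW480 mock, and 2.87, 4.38 and 3.61 in SW480 ERβ, the last above all others. ITGB4, the hemidesmosome subunit, had its bin on its own TSS and read 3.73, 2.07 and 1.84 in HT29 mock, 3.21, 2.06 and 0.720 in HT29 ERβ, 2.42, 1.89 and 1.82 in SW480 mock, and 3.29, 2.27 and 3.41 in SW480 ERβ. ITGB4 groups overlapped and none was bound. ITGB2, the common chain of leukocyte integrins, read 1.15, 0.925 and 0.530 in HT29 mock, 1.11, 0.563 and 0.550 in HT29 ERβ, 1.25, 0.963 and 1.46 in SW480 mock, and 1.49, 2.34 and 3.46 in SW480 ERβ. ITGB3, known from platelets, was lower still, with 0.245 to 0.719 in HT29 mock, 0.40 to 0.604 in HT29 ERβ, 0.288 to 0.896 in SW480 mock and 0.778 to 1.58 in SW480 ERβ.

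**Figure D3:**
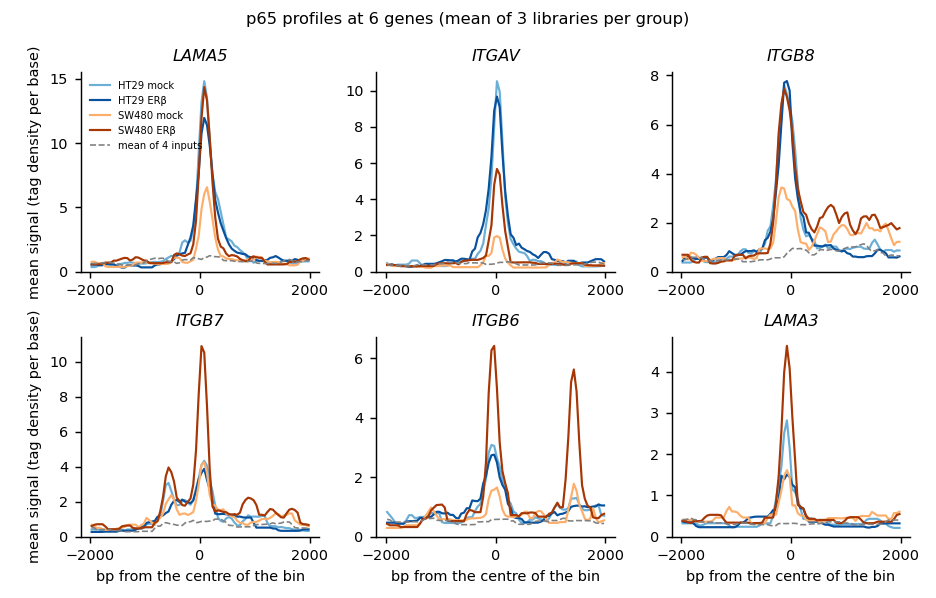
Mean profiles of 3 ChIP libraries per group, and of the 4 inputs as a dashed line, over 2 kb to either side of the bin centre for 6 genes, with the direction of transcription to the right. SW480 mock is the lowest peak at LAMA5, ITGAV, ITGB8 and ITGB6, SW480 ERβ is the highest at ITGB7 and ITGB6, and the second peak of ITGB6 is the place 8.0 kb upstream.

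Whether ERβ went with a change of p65 signal was tested within each line by limma on log2(signal + 1), fitted over all 19440 genes and adjusted by the method of Benjamini and Hochberg, with a threshold of 0.05. In HT29 none of the 38 genes passed, against 0.0% of all genes higher and 0.0% lower. The differences ran from -0.59 at LAMB3 to 0.25 at ITGAD. Of the 38 genes 26 were below 0, as were 12667 of all 19440 genes. An unadjusted p under 0.05 was found in 0 of the 38 genes, and in 480 of all genes. The LAMB3 difference was -0.59 ± 0.34 (SE), with a 95% interval from -1.28 to 0.09, so both a much lower and an equal signal lie inside it. With the replicate numbers as a block the HT29 count was again 0. In ITGA5 and LAMB1 every HT29 ERβ library lay below every HT29 mock library, 2 of 38 genes or 5.26% against 4.42% of all genes, and in 0 of 38 above, against 1.98%.

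In SW480 5 of the 38 genes were higher with ERβ and 0 lower, 13.2% against 7.85% of all genes higher and 0.0669% lower. ITGB6 was higher by 1.32 ± 0.34 (SE; adjusted p = 0.00798, limma), ITGB5 by 1.00 ± 0.30 (adjusted p = 0.0287), ITGA3 by 0.84 ± 0.26 (adjusted p = 0.0319), LAMA3 by 0.98 ± 0.32 (adjusted p = 0.0424) and LAMC3 by 0.65 ± 0.21 (adjusted p = 0.0428). In LAMC3 the groups overlapped, and in the other 4 they did not. In 11 of the 38 genes, 28.9%, every ERβ library was above every mock library, against 25.4% of all genes, and in 0 below, against 1.96%.

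The SW480 count moved with the fit. Pairing of libraries by replicate number within each line was read from their values, not from the labels, and was clearest for replicate 1. In HT29 the deviations of mock replicate 2 correlated more with ERβ replicate 3 (0.213) than with ERβ replicate 2 (0.154). With the number as a block 14 of 38 genes were higher, 36.8% against 24.7% of all genes. The block added ITGB7 (adjusted p = 0.00026, limma), LAMA5 (0.00024), LAMB3 (0.0006), ITGAV (0.00071), ITGB8 (0.0024), ITGB1 (0.007), ITGB2 (0.021), ITGA1 (0.022) and ITGB3 (0.034) to the 5 above. In the other direction, the count was 0 without any one of SW480 ERβ replicate 2, SW480 ERβ replicate 3, SW480 mock replicate 1 or SW480 mock replicate 2, against 2.87%, 3.41%, 2.62% and 3.84% of all genes higher. It was 1 without SW480 mock replicate 3, against 4.81%, and 12 without SW480 ERβ replicate 1, against 16.8%. Through the shared estimate of the spread, it was also 9 without HT29 ERβ replicate 1, against 11.1%, and 3 without HT29 ERβ replicate 2 or HT29 mock replicate 3, against 6.6% and 6.75%. Where the bin was chosen in the HT29 libraries alone, 1 of 38 genes passed, ITGB6 (limma, adjusted p = 0.019), against 3.25% of all genes.

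Scaling mattered as well. The median difference over all genes was 0.22 in SW480, and that over the 38 genes 0.26, so the 38 genes as a list lay close to the whole table. With each library centred on its median 2 of 38 genes passed, ITGB6 with a difference of 1.09 (adjusted p = 0.0075, limma) and ITGB5 with 0.77 (adjusted p = 0.047), and the split over all genes went from 1526 higher and 13 lower to 930 and 315. The laminin-332 chains LAMA3 and LAMB3 had SW480 differences of 0.98 and 1.00. Of the other roles, the median SW480 difference was 0.80 over the 8 β subunits, 0.37 over the 4 RGD-binding α, 0.35 over the 3 laminin-binding α, 0.22 over the 9 other laminin chains, 0.14 over the 4 collagen-binding α, 0.087 over α4 and α9, and 0.049 over the 5 leukocyte α subunits. Roles were not matched for signal. Over all genes with a bin mean of at least 1 the median was 0.49, but that mean includes the SW480 ERβ libraries themselves. Whether the order of roles follows signal was not tested.

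**Figure D4:**
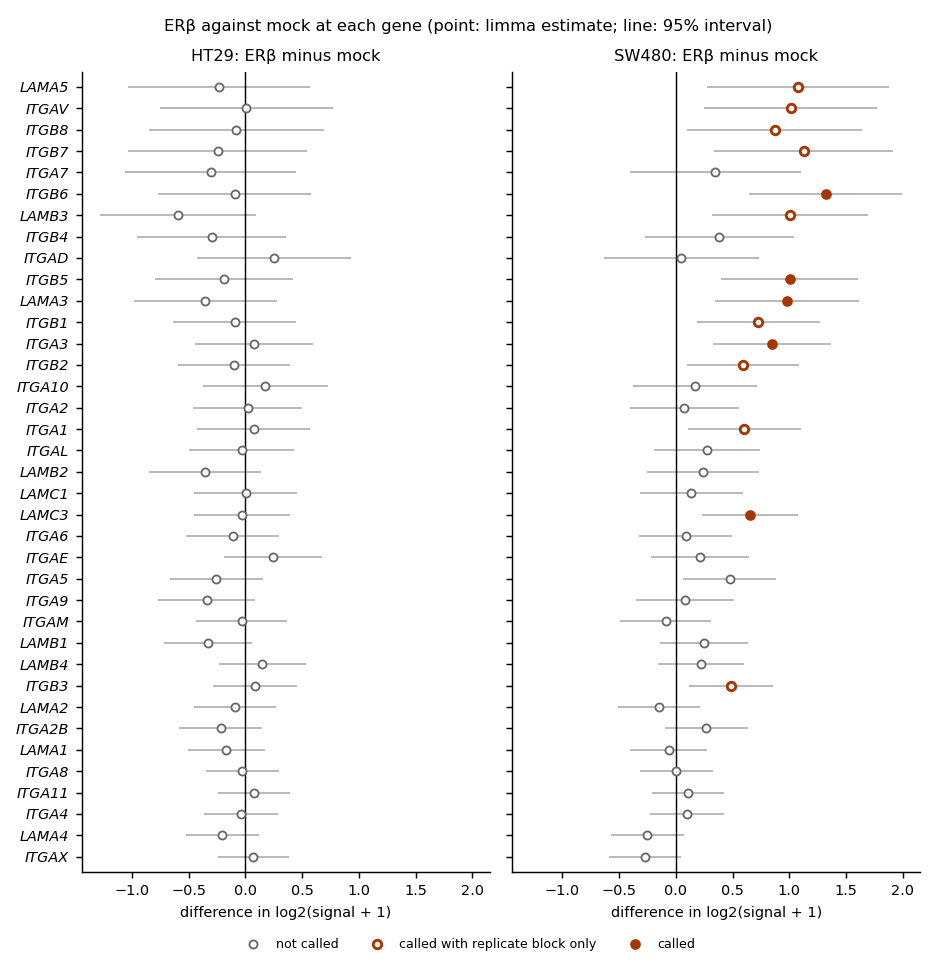
ERβ minus mock in log2(signal + 1) for 37 genes in HT29 (left) and SW480 (right), as limma estimates with 95% intervals, with genes in order of mean signal. In HT29 no point is called, while in SW480 5 filled points are called and 9 ringed points only with the replicate block.

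The difference of the ERβ effect between the lines was tested by the interaction term of the same fit. Without the block 0 of 38 genes passed, against 2.56% of all genes higher and 0.00514% lower, and 11 had an unadjusted p under 0.05, 28.9% against 19.4% of all genes. The smallest adjusted p was that of LAMB3, 0.0597 (limma), where the ERβ minus mock difference was higher by 1.598 ± 0.48 (SE) in SW480. With the block 10 of 38 genes passed, 26.3% against 19.0% of all genes, and 0 passed the other way, against 0.123%. All 10 had a higher ERβ minus mock difference in SW480. They were LAMB3, ITGB6, LAMA5, ITGB7, LAMA3, ITGB5, ITGAV, ITGB8, ITGB1 and ITGA5. Without the block, leaving out HT29 ERβ replicate 1 gave 7 genes, against 9.27% of all genes, SW480 ERβ replicate 1 gave 6, against 8.92%, and HT29 mock replicate 2 gave 1, against 2.59%.

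Mock cells of the 2 lines were compared for the difference in p65 signal without ERβ. In SW480 mock 2 of 38 genes were higher than in HT29 mock, 5.26% against 9.21% of all genes, and 4 were lower, 10.5% against 8.66%. Lower were ITGAV by 1.78 ± 0.38 on the log2 scale (SE; difference -1.78, adjusted p = 0.00081, limma), LAMB2 (difference -1.18 ± 0.25, adjusted p = 0.00062), LAMB3 (-1.21 ± 0.34, adjusted p = 0.0103) and LAMA5 (-1.19 ± 0.40, adjusted p = 0.0312). Another fit took the number as a block, which joins the lines by number alone, although the numbers did not pair libraries between the lines. There LAMA5 had an adjusted p of 0.0523 (limma). This left 3 of 38 genes lower against 8.22% of all genes and 2 higher against 8.69%. The libraries did not overlap in 5 genes with SW480 mock above, 13.2% against 19.6% of all genes, and in 6 with SW480 mock below, 15.8% against 15.7%. With libraries centred 2 of 38 genes were higher, against 7.71%, and 6 lower, against 13.7%, among them ITGB8 and LAMB1. Higher were ITGAE by 0.78 ± 0.21 (limma, adjusted p = 0.00889) and LAMC3 by 0.66 ± 0.21 (adjusted p = 0.0233). With the starts of all transcripts LAMC3 took another bin and was lower (limma, difference -0.78, adjusted p = 0.0171), and ITGAE did not pass (0.53, adjusted p = 0.0705), which left 0 of 38 genes higher, against 9.36% of all genes. With input subtracted LAMC3 was at -0.053 and ITGAE at 0. In the promoter alone LAMB2 was higher in SW480 mock (limma, difference 0.56, adjusted p = 0.0193), and ITGAV was at 0.12 and did not pass.

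Input signal over 100 kb, which was taken as a measure of DNA copy number, was 2.47 times as high in SW480 mock as in HT29 mock at ITGAE and 1.6 times at LAMC3. It was also higher at genes that were not called higher, among them ITGB2 (2.14 times), ITGB4 (1.82), ITGB7 (1.78), ITGA7 (1.77) and ITGA5 (1.75). With signal divided by the input's level, neither passed (difference 0.28, adjusted p = 0.39 for ITGAE and 0.37, adjusted p = 0.22 for LAMC3, limma). The 4 lower genes still passed, with an input ratio of 0.845 at ITGAV, 2.03 at LAMB2, 1.03 at LAMB3 and 1.30 at LAMA5. Each group had 1 input, and the 2 inputs of a line differed. Relative to the genome median, ITGAE stood at 0.718 in the HT29 mock input and 0.913 in the HT29 ERβ input. LAMA5 stood at 1.75 and 2.31 in the same inputs, so the division carries the error of single inputs. Without both HT29 libraries of replicate 1, 3 of 38 genes were lower and 0 higher, against 5.27% and 7.05% of all genes. Without HT29 mock replicate 1 alone, or without SW480 mock replicate 1 alone, 2 genes passed, both lower, against 3.79% and 4.63% of all genes lower.

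Between the ERβ cells of the lines 9 of 38 genes were higher in SW480, 23.7% against 29.9% of all genes, and 0 lower, against 3.44%. They were LAMC3 by 1.34 ± 0.21 (SE; adjusted p = 3.01e-06, limma), ITGA5 by 1.09 ± 0.20 (adjusted p = 6.0e-05), ITGB2 by 0.95 ± 0.25 (adjusted p = 0.0026), ITGAE by 0.75 ± 0.21 (adjusted p = 0.0062), ITGB7 by 1.32 ± 0.39 (adjusted p = 0.0084), ITGB3 by 0.57 ± 0.18 (adjusted p = 0.0153), LAMA3 by 0.97 ± 0.32 (adjusted p = 0.0155), ITGB5 by 0.90 ± 0.30 (adjusted p = 0.0193) and ITGA6 by 0.55 ± 0.21 (adjusted p = 0.0345). This comparison and the mock comparison use different libraries, while each shares libraries with the ERβ comparisons within lines. The median over all genes was 0.33, and with libraries centred 4 of 38 genes were higher and 5 lower, against 10.5% and 13.6% of all genes, with LAMC3, ITGA5, ITGB2 and ITGB7 still higher. The libraries did not overlap in 9 genes with SW480 ERβ above, 23.7% against 35.4% of all genes, and in 1 below, 2.63% against 4.93%. Divided by the input's level, ITGA5 was still higher (limma, difference 0.79, adjusted p = 0.0015) and LAMC3 too (1.15, adjusted p = 4.0e-05), while LAMA3 (difference 0.72, adjusted p = 0.118) and ITGAE (0.35, adjusted p = 0.172) did not pass. The count divided this way was again 9 higher, 23.7% of the 38 and 23.7% of all genes, with 1 lower, against 2.37%. Without HT29 ERβ replicate 2 or without SW480 ERβ replicate 2, 3 genes were higher, against 18.1% and 19.1% of all genes.

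ITGAV and LAMB2, low in SW480 mock, had differences of -0.77 and -0.58 between the ERβ cells, and neither passed without the block. With the block LAMB2 was lower (adjusted p = 0.0435, limma), the 1 of 38 genes lower against 3.4% of all, and 9 were higher against 28.8%. With libraries centred both ITGAV and LAMB2 were lower.

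The genes that work with integrins and laminins were counted in the same fit. Of 22 genes of integrin adhesions, which are mostly adaptors such as talins, kindlins and tensins but include the kinases PTK2 and SRC and the tetraspanin CD151, 2 were higher with ERβ in SW480, 9.09% against 7.85% of all genes. They were FERMT2 (kindlin-2) by 0.74 ± 0.21 (SE; adjusted p = 0.0205, limma) and TNS1 (tensin 1) by 1.11 ± 0.32 (adjusted p = 0.0219). None was lower, and the median was 0.39 against 0.22 over all genes. Their highest bin was that of TNS3, with a mean of 12.3. Of 18 basement membrane and hemidesmosome genes 2 were higher, 11.1% against the same 7.85%, COL7A1, the anchoring fibril collagen, by 0.94 ± 0.24 (limma, adjusted p = 0.0079) and DST, a hemidesmosome linker, by 0.95 ± 0.24 (adjusted p = 0.0076). COL7A1 also passed the interaction test without the block, by 1.16 ± 0.34 (limma, adjusted p = 0.0461). In HT29 0 genes of either list passed.

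Between mock lines, where 9.21% of all genes were higher in SW480 and 8.66% lower, 2 of the 22 adhesion genes were higher (9.09%) and 5 lower (22.7%), and 3 of the 18 basement membrane genes were higher (16.7%) and 2 lower (11.1%). Between ERβ cells, where 29.9% of all genes were higher and 3.44% lower, 7 adhesion genes were higher (31.8%) and 1 lower (4.55%), and 8 basement membrane genes were higher (44.4%) and 1 lower (5.56%). COL4A3 and COL4A4 share a bin and count as 2 among the higher genes in both comparisons. For scale, the bins of the known p65 targets NFKBIA, TNFAIP3, BIRC3 and CXCL8 had means of 19.5, 18.3, 18.7 and 8.60 over the 12 libraries, all above the 8.26 of LAMA5.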

How the data were processed

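p65 ChIP-Seq was analysed in 12 ChIP and 4 input libraries. The authors aligned unique reads with STAR to hg38 and deposited HOMER tracks, whose signal is tag density per base, scaled to 10 M tags and fragments of 100 bp per the file headers. Stretches under 0.05 are left out and counts are not used here, so the tracks do not give the depth, and count models were not run. The genes and lists were chosen with earlier results of these data known. Each gene's bin was the highest of a fixed grid of 200 bp (mean of 12 ChIP libraries) about the MANE Select, otherwise canonical, TSS of GENCODE 44, and 593 genes had no signal there. Named with values were genes past the threshold in any of 5 comparisons, the 10 with the highest mean, LAMA3, LAMB3, ITGA6, ITGB4 and ITGAV. One gene counted among the 38 is not reported here, by value or in the figures. Further sites were chosen after their values were seen.

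Group means of log2(signal + 1) were fitted over 12 libraries in limma 3.58.1 (R 4.3.3, trended eBayes) with Benjamini-Hochberg adjustment over 19440 genes. The fit was tested on simulated data. The authors call the libraries biological replicates, and no 2 libraries of a group held the same values in more than 0.102% of 8805 genes. Pairing by replicate number within each line was read from deviations from the group means, over 8805 genes with a mean of at least 1. For mock and ERβ libraries of one number these correlated at 0.484, 0.154 and 0.242 in HT29 and 0.355, 0.140 and 0.211 in SW480. Libraries of unlike number correlated at -0.376 to 0.213 in HT29, where the highest (mock 2, ERβ 3) exceeded a same-number value, and at -0.246 to 0.0725 in SW480. Between the lines, mock or ERβ libraries of one number correlated at -0.245 to -0.0400, so the number did not pair them. The labels do not say what a number stands for. Alternatives covered pseudocount, low values, centring, copy number, input, bin and TSS choice, the block, and left-out libraries. The alternative without both HT29 libraries of replicate 1 was chosen after seeing the data.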

Additional observations from a re-analysis of the deposited data

Results flagged for a closer look

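With the replicate number as a block in limma, the ERβ effect differed between the lines in 10 of the 38 genes. That was 26.3% against 19.0% of all genes. In each the ERβ minus mock difference was higher in SW480, and at LAMB3 it was negative in HT29 (-0.59) and positive in SW480. ITGA5 was not among the genes called higher in SW480 with the block. It read 1.23 and 1.11 times its input in HT29 mock and HT29 ERβ. The difference of the 2 effects in log2(signal + 1) was 1.598 at LAMB3, 1.41 at ITGB6, 1.37 at ITGB7, 1.33 at LAMA3, 1.31 at LAMA5, 1.19 at ITGB5, 1.00 at ITGAV, 0.95 at ITGB8, 0.82 at ITGB1 and 0.73 at ITGA5. Their adjusted p-values in limma with the block ran from 0.00034 at LAMB3 to 0.0465 at ITGA5, and without the block none passed, with 0.0597 at LAMB3 as the smallest. The median of this difference over all genes was 0.30.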

How the results depend on the processing

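The HT29 comparison gave 0 of 38 genes under every alternative run. In SW480 ERβ against mock, 5 genes passed, all higher, and the share of all genes higher, here 7.85%, follows each count in brackets. The count was 14 with the replicate block (24.7%), 14 with input subtracted (32.6%) and 10 without both HT29 libraries of replicate 1 (14.2%). It was 9 of the 22 genes with a bin mean of at least 1 (19.9%), 3 with the 2 SW480 groups alone (4.69%) and 2 with bins of 500 bp (5.84%). It was 2 with libraries centred (4.78%), 1 with bins chosen on the other line (3.25%) and 0 with promoters alone (1.13%). With 1 library left out it was 0 to 12 (2.62% to 16.8%). The bin mean behind the limit of 1 includes the SW480 ERβ libraries themselves, so genes high in that group pass the limit more easily. This holds for the same limit in the difference of effects below. For the difference of the ERβ effects, 0 passed, against 2.56% of all genes higher, with shares given as before. The count was 10 with the replicate block (19.0%), 9 with input subtracted (23.8%) and 2 of the 22 genes with a bin mean of at least 1 (8.19%). It was 2 without both HT29 libraries (2.71%) and 1 with copy number (6.85%). It was also 1 with a pseudocount of 0.1 (2.84%) or 0.5 (2.77%) and with all transcript starts (3.38%). With 1 library left out it was 0 to 7 (0.34% to 9.27%). Between mock lines 6 passed, against 9.21% of all genes higher and 8.66% lower, and 3 without both HT29 libraries, against 7.05% and 5.27%. With 1 left out it was 2 to 7, against 4.95% to 10.6% higher and 3.79% to 10% lower. Between ERβ cells 9 passed, against 29.9% higher and 3.44% lower. With 1 left out it was 3 to 12, against 18.1% to 34.2% higher and 2.48% to 3.74% lower. With the replicate block, LAMA5 between mock lines and LAMB2 between ERβ cells changed their call, beside those in SW480 and in the difference of effects.

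Over all genes the SW480 split of 1526 higher and 13 lower became 4797 and 68 with the block, 6335 higher with input subtracted, 629 and 2 with bins chosen on the other line, 911 and 4 with the compared groups alone, 215 and 14 with promoters alone, and 930 and 315 centred. The split of the difference of effects, 497 and 1, became 3687 and 24 with the block, 4628 and 56 with input subtracted, 1331 and 7 with copy number, 266 and 1 with bins of 500 bp, 21 and 1 with promoters alone, and 301 and 34 centred. Centred splits were 1499 and 2669 in place of 1791 and 1683 between mock lines, and 2041 and 2646 in place of 5810 and 669 between ERβ cells. Between mock lines the split was 163 and 1212 with input subtracted and 441 and 1505 with copy number.

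Bound genes in HT29 mock went from 8 to 4 at 6-fold (10.5% against 6.87% of all genes) and 5 at a minimum of 3 (13.2% against 7.61%), in SW480 mock from 1 to 2 at a minimum of 1 (5.26% against 5.06%) and 3 with all transcript starts or sliding windows (7.89% against 5.64% and 5.20%), and in SW480 ERβ from 13 to 6 at 6-fold (15.8% against 13.7%) and 7 with all 3 libraries required (18.4% against 12.1%). Signs turned in 7 cases, and 1 value went to 0. With promoters alone, LAMC3 was at -0.093 in SW480 ERβ against mock, and ITGAV at 0.12 and LAMB2 at 0.56 between mock lines, the last past the threshold (adjusted p = 0.0193, limma). With input subtracted, LAMC3 was at -0.053 and ITGAE at 0 between mock lines. With all transcript starts, LAMC3 was at -0.78 between mock lines and ITGA6 at -0.19 between ERβ cells, and with the start of the gene record ITGB5 was at -0.55 there. These alternatives take another bin or remove the input, and no further cause was tested.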
